A study of Mus musculus with 36 samples.

Results

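The genes that move proteins into mitochondria, fold them there and degrade them were followed across soleus and extensor digitorum longus (EDL) muscles of mice labelled as lacking estrogen-related receptors (ERRs) in muscle. The set was chosen by symbol: every row with a value whose symbol starts with Timm or Tomm, together with 20 named genes of the sorting machinery, the import motor, the processing peptidase, the matrix chaperones and the proteases. The symbols matched 46 rows, of which 44 held a value, among 17873 genes with a value in all. Tomm20l and Tomm6os held none. Timm8a2 had a value in 1 library (-5.09, soleus ERRalpha/ERRgamma knockout-labelled replicate 1) and did not pass the filter on low values. The other 43 had a value in all 36 libraries and passed the filter, as did 13404 genes overall.

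All mice were 1-year-old males on the C57BL/6JBom background, housed at about 22 °C with 12 h of light. Both knockout-labelled and wild-type mice came from crosses of floxed receptor alleles. In the knockout-labelled mice Cre recombinase is driven by the human alpha-skeletal actin promoter, which is active in skeletal muscle fibres, so the other cells of the muscle are not targeted. The 3 classes were ERRalpha, ERRbeta with ERRgamma, and ERRalpha with ERRgamma. Each class had 3 knockout-labelled and 3 wild-type littermate libraries per muscle, which gave 12 groups of 3. The columns name animals and carry no replicate number, so replicates 1 to 3 are only names, and 14 of the 22 animals gave both muscles.

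Nearly all mitochondrial proteins are made in the cytosol. They enter through the translocase of the outer membrane (TOM) and are then handed on. Beta-barrel proteins go to the sorting and assembly machinery (SAM), hydrophobic carriers are escorted by the small TIM chaperones to the TIM22 translocase, and proteins with a presequence pass through the TIM23 translocase. There an ATP-driven motor (PAM), with the mitochondrial Hsp70 Hspa9 at its centre, pulls them into the matrix, the processing peptidase (MPP) removes the presequence, the Hsp60 chaperonin folds them, and Lon, ClpXP and the AAA proteases of the inner membrane remove damaged chains. ERRs are orphan nuclear receptors that drive genes of oxidative metabolism in muscle, where ERRgamma is most abundant in slow oxidative fibres.

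Values are log2 signals, quantile normalized by the authors. The unit before the log is not stated, so levels of different genes are not compared here. A change is knockout-labelled minus wild type, given with its SE from limma, n = 3 libraries per group. A gene was called, and is said to have risen or fallen, at an adjusted p under 0.05 (limma, Benjamini-Hochberg over all genes tested in that comparison). In bulk muscle, fewer cells of a type and less RNA per cell cannot be told apart.

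The depth of each library is unknown, and 13667 to 14951 genes were detected per library. In the ERRalpha/ERRgamma class more were detected in every knockout-labelled library than in any wild type of the same muscle. The ranges were 14379 to 14835 against 14033 to 14376 in EDL. In soleus they were 14751 to 14951 against 14316 to 14624. In both muscles of the other classes the ranges overlapped. The part of detection in the results was not tested. The receptor genes did not all follow the labels, and the reason was not tested. A gene total need not show the loss of floxed exons. The labels were read from column names, and those of EDL ERRalpha carry no class letter. Esrra fell in both muscles of the ERRalpha/ERRgamma class (EDL -2.23 ± 0.12, soleus -0.57 ± 0.12), and its change in the ERRalpha class was -0.19 ± 0.12 in EDL and 0.33 ± 0.12 in soleus, neither called. Esrrg rose in the ERRalpha/ERRgamma class (EDL 0.51 ± 0.15, soleus 1.21 ± 0.15), in soleus of the ERRbeta/ERRgamma class (1.09 ± 0.15) and in EDL of the ERRalpha class (0.61 ± 0.15). Esrrb was called only in EDL of the ERRalpha/ERRgamma class (-1.60 ± 0.21), among the 6 knockout comparisons. The 3 knockout-labelled soleus libraries of the ERRbeta/ERRgamma class differed more among themselves (Pearson r 0.939 to 0.972 across genes) than those of every other group (0.975 to 0.984). No gene of the lists for fibroblasts, leukocytes, fat, Schwann cells, smooth muscle, red blood cells and satellite cells was called in the 6 knockout comparisons, in limma with Benjamini-Hochberg adjustment. At an unadjusted p under 0.05 there were 4 of 30 tests for fibroblast genes, 1 of 24 for leukocyte, 1 of 18 for Schwann cell and 2 of 12 for satellite cell genes, and 0 for the other lists.

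Across the 43 genes the mean signal per library was 4.12 to 4.17 in the knockout-labelled EDL of the ERRalpha/ERRgamma class, against 4.58 to 4.63 in its wild types. In soleus of that class it was 4.41 to 4.53 against 4.77 to 4.79. In the ERRalpha class the ranges were 4.41 to 4.46 against 4.45 to 4.56 in EDL, and 4.74 to 4.80 against 4.73 to 4.77 in soleus. In the ERRbeta/ERRgamma class they were 4.53 to 4.55 against 4.50 to 4.57 in EDL, and 4.60 to 4.67 against 4.70 to 4.72 in soleus. The groups stood apart in both muscles of the ERRalpha/ERRgamma class and, by a smaller distance, in soleus of the ERRbeta/ERRgamma class. The heat map shows the change of each gene in the 6 comparisons.

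**Figure D1:**
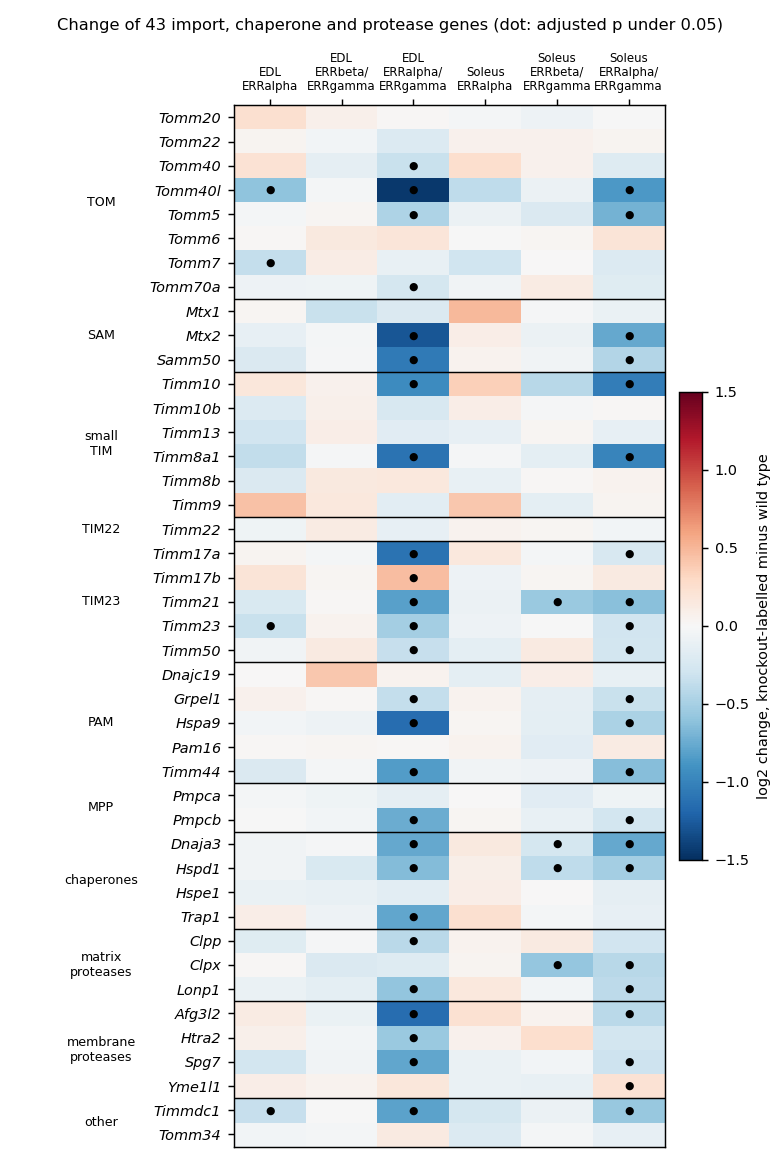
Change of the 43 genes (rows, grouped by role) in 6 comparisons of knockout-labelled with wild-type libraries (columns, 3 against 3). Colour is the log2 change and a dot marks an adjusted p under 0.05; the EDL ERRalpha/ERRgamma column carries 26 dots, the soleus column of that class 22, and no other column more than 4.

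In EDL of the ERRalpha/ERRgamma class, 25 of the 43 genes fell and 1 rose. The median change of the 43 was -0.35, against 0.13 over all genes tested. Of all genes tested, 6.95% fell and 11.1% rose. After the libraries were centred on their median signal, 26 of the 43 fell and 1 rose, and among all genes 1053 fell and 1009 rose in place of 929 and 1487. The falls were not even across the machinery: every role group with more than 1 gene held both a called and an uncalled member, except TIM23, in which all 5 genes were called.

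At the outer membrane, 4 of 8 TOM genes fell in the EDL of that class. Tomm40l (chr1:171216011-171222514), a paralog of the pore gene Tomm40, had signals of 3.90, 3.84 and 3.87 in the wild types and 2.41, 2.19 and 2.67 in the knockout-labelled libraries. Its fall of -1.45 ± 0.12 (adjusted p = 1.13e-10, limma) was the largest of the 43 and corresponds to a signal 2.73-fold lower. Tomm40 (chr7:19701313-19715438), which encodes the pore itself, fell by less, -0.34 ± 0.11 (adjusted p = 0.0297, limma), from 4.07, 3.99 and 3.89 to 3.69, 3.66 and 3.58. The call for Tomm40 was lost in 4 of the 6 fits that left out a library (adjusted p up to 0.113). Among the other subunits, the small Tomm5 fell by 0.47 ± 0.15 on the log2 scale and the receptor Tomm70a by 0.26 ± 0.06. The call for Tomm5 was also lost in 4 of the 6 fits that left out a library (adjusted p up to 0.125), and that for Tomm70a when only the groups compared were fitted (adjusted p = 0.0522). The presequence receptors Tomm20 (0.02 ± 0.10) and Tomm22 (-0.21 ± 0.08) and the small subunits Tomm6 (0.18 ± 0.11) and Tomm7 (-0.11 ± 0.10) were not called.

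Of the SAM genes, 2 of 3 fell. Mtx2 (chr2:74825803-74878431), a metaxin on the cytosolic face of the machinery, had wild-type signals of 4.60, 4.72 and 4.73 and knockout-labelled signals of 3.33, 3.37 and 3.50, a change of -1.28 ± 0.14 (adjusted p = 4.5e-08, limma). Samm50 (chr15:84192241-84217267), the barrel that inserts other barrels, went from 6.43, 6.62 and 6.60 to 5.52, 5.56 and 5.39, a change of -1.06 ± 0.07 (adjusted p = 6.4e-13, limma). Both groups of libraries lay about 1 log2 unit apart with no overlap. In this comparison 34 of the 43 genes had no overlap, and the share over all genes was not counted. Mtx1, the partner metaxin, had a value of -0.22 ± 0.15 and was not called.

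Among the small TIM chaperones of the intermembrane space, 2 of 6 fell. Timm8a1 (chrX:134537256-134541865), the mouse counterpart of the gene mutated in deafness-dystonia syndrome, had signals of 2.92, 2.91 and 2.94 in the wild types and 1.69, 1.83 and 1.93 in the knockout-labelled libraries (-1.11 ± 0.16, adjusted p = 6.52e-06, limma). Its paralog Timm8b (chr9:50603910-50605320) was at 6.72, 6.73 and 6.74 against 6.95, 6.86 and 6.84, a change of 0.15 ± 0.09 that was not called. Timm10 (chr2:84826997-84830213), which forms the carrier chaperone with Timm9, went from 4.10, 4.20 and 3.82 to 3.22, 3.05 and 3.04 (-0.94 ± 0.16, adjusted p = 4.09e-05, limma). Timm9 itself (-0.16 ± 0.13), Timm10b (-0.24 ± 0.16) and Timm13 (-0.17 ± 0.09), the partner of the Timm8 proteins, were not called, nor was Timm22, the channel they deliver to (-0.12 ± 0.11).

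All 5 TIM23 genes were called in EDL of the ERRalpha/ERRgamma class, and the paralogs of its Tim17 subunit moved in opposite directions. Timm17a (chr1:135295213-135313778) had wild-type signals of 6.59, 6.57 and 6.62 and knockout-labelled signals of 5.49, 5.41 and 5.55, a change of -1.11 ± 0.07 (adjusted p = 5.49e-14, limma). Timm17b (chrX:7899357-7908351) rose from 3.06, 2.98 and 3.04 to 3.43, 3.47 and 3.56, a change of 0.46 ± 0.11 (adjusted p = 0.00291, limma), and was the only gene of the 43 to rise there. Neither pair of groups overlapped. The Timm17b locus overlaps the annotated gene Gm10491 on the opposite strand, and the sources used here do not say whether counting used strand. The same limit holds for genes that fell there. Tomm40l, Tomm70a, Timm21, Grpel1, Hspd1, Trap1 and Htra2 overlap protein-coding genes on the opposite strand. Dnaja3 overlaps Vasn on the same strand and Coro7 on the opposite strand, and Spg7 overlaps Gm20388 on the same strand. Hspa9 has a named pseudogene copy. The channel gene Timm23 fell by 0.51 ± 0.06, the presequence receptor Timm50 by 0.34 ± 0.07, and Timm21, which links the complex to TOM and the respiratory chain, by 0.82 ± 0.10, all on the log2 scale.

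In the import motor 3 of 5 genes fell. Hspa9, the mitochondrial Hsp70, went from 7.10, 7.28 and 7.21 to 6.05, 6.01 and 6.10 (-1.14 ± 0.08, adjusted p = 3.58e-12, limma), the tether Timm44 changed by -0.83 ± 0.10 and the nucleotide exchange factor Grpel1 by -0.35 ± 0.07. The J-domain pair that regulates Hspa9 at the channel, Dnajc19 (0.06 ± 0.11) and Pam16 (0.02 ± 0.10), was not called. Of the processing peptidase subunits, the catalytic Pmpcb fell from 5.38, 5.69 and 5.47 to 4.73, 4.81 and 4.76 (-0.75 ± 0.07, adjusted p = 2.14e-09, limma). The other subunit, Pmpca, had a value of -0.14 ± 0.06 and was not called.

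In the matrix, 3 of 4 folding chaperones fell. Hspd1, the Hsp60 chaperonin, had signals of 6.10, 6.20 and 6.08 in the wild types and 5.36, 5.48 and 5.59 in the knockout-labelled libraries (-0.65 ± 0.11, adjusted p = 3.66e-05, limma). Its co-chaperonin Hspe1 was at 6.03, 6.21 and 6.07 against 5.87, 6.12 and 5.84, overlapping groups with a change of -0.16 ± 0.14. The 2 genes lie head to head on chr1 (Hspd1 at 55077835 to 55088243, minus strand, and Hspe1 at 55088132 to 55091307, plus strand), their annotated starts lie 111 bases apart inside a stretch that both cover, and both have named pseudogene copies (5 and 6), so the split of reads between them is uncertain. The Hsp40 co-chaperone Dnaja3 (-0.77 ± 0.07) and the Hsp90 paralog Trap1 (-0.78 ± 0.09) also fell.

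Of the proteases, 5 of 7 fell in the EDL of that class. Afg3l2, a subunit of the m-AAA protease, went from 4.15, 4.41 and 4.26 to 3.16, 3.01 and 3.21 (-1.15 ± 0.08, adjusted p = 4.73e-12, limma), and Spg7, another m-AAA subunit, from 4.93, 5.09 and 5.05 to 4.17, 4.25 and 4.32 (-0.78 ± 0.08, adjusted p = 8.74e-09, limma). Lonp1, the matrix Lon protease, fell by 0.59 ± 0.08 on the log2 scale. Clpp (-0.40 ± 0.12) and Htra2 (-0.56 ± 0.15), a protease of the intermembrane space, also fell, and each call was lost when wild-type replicate 1 or knockout-labelled replicate 2 was left out (adjusted p 0.053 to 0.069). Clpx, the unfoldase that feeds Clpp, was at -0.20 ± 0.10, and Yme1l1, the i-AAA protease that faces the other side of the inner membrane from the m-AAA enzyme, at 0.17 ± 0.07, neither called. Timmdc1, named for a TIM-like domain and an assembly factor of respiratory complex I, fell by 0.80 ± 0.09, and the cytosolic co-chaperone Tomm34 was not called (0.14 ± 0.14).

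**Figure D2:**
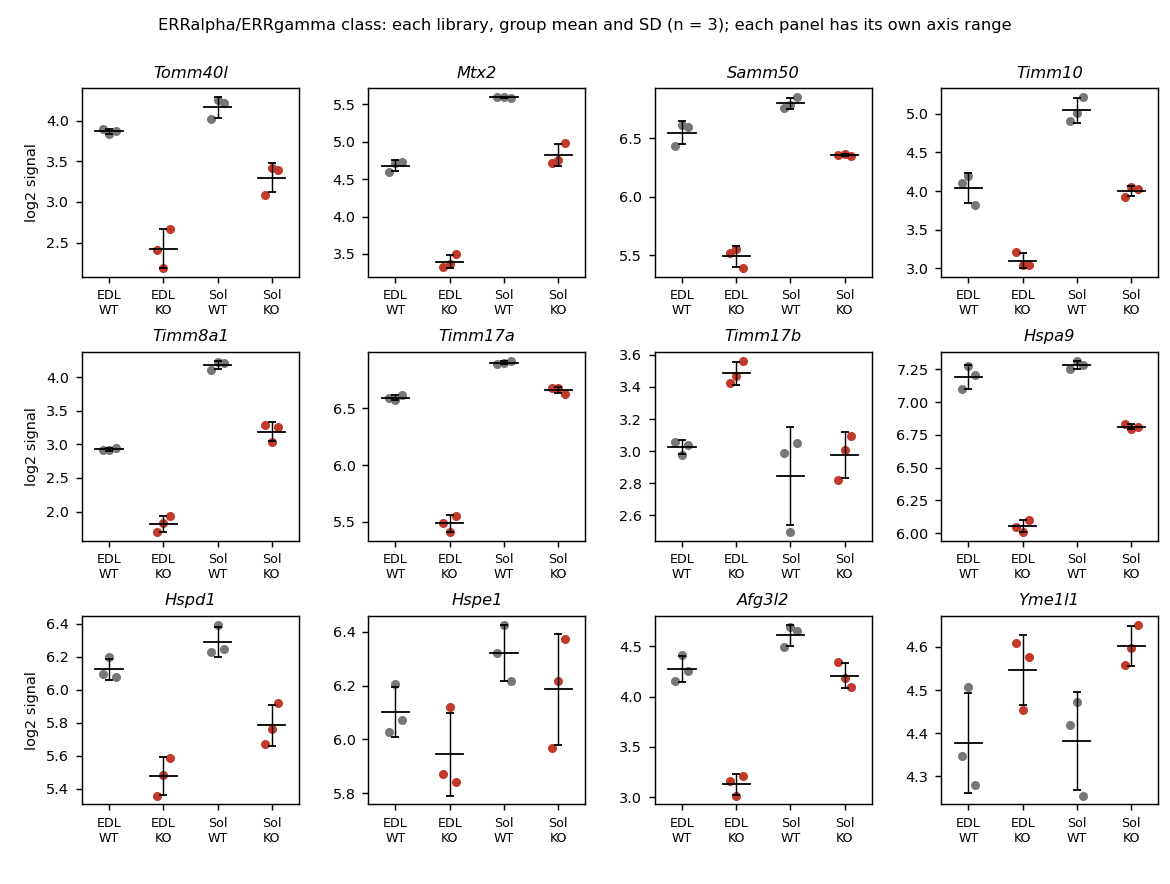
Log2 signal (vertical axis) of 12 genes in each library of the ERRalpha/ERRgamma class, by muscle and genotype label (points; WT wild type, KO knockout-labelled), with group mean and SD (n = 3). Tomm40l, Mtx2, Samm50, Timm10, Timm8a1, Timm17a, Hspa9, Hspd1 and Afg3l2 did not overlap between WT and KO in either muscle, Timm17b rose in EDL, and Hspe1 overlapped in both muscles. Of the 43 genes, 34 did not overlap in EDL and 26 in soleus, and the share over all genes was not counted.

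Other values of these libraries moved with the comparison. In the knockout-labelled EDL of the ERRalpha/ERRgamma class, all 3 slow-fibre genes on the list rose (Myh7 3.55 ± 0.94, Tnni1 1.82 ± 0.47, Tnnt1 1.39 ± 0.42), with a summed linear signal of 5.45 to 48.3 against 4.33 to 7.21 in the wild types and 1945 to 4622 in soleus. Of the 5 endothelial genes Flt1 (-0.63 ± 0.13) and Kdr (-0.60 ± 0.17) fell, and the summed signal was 34.9 to 49.2 against 45.1 to 60.5. The oxygen carrier Mb, a fibre gene, fell by 1.01 ± 0.17 on the log2 scale and the intermediate filament gene Des rose (0.46 ± 0.13), and the 5 muscle fibre genes summed to 17852 to 17992 against 18133 to 20242. None of the slow-fibre or endothelial genes was undetected in any library. Their part in the falls described here was not tested.

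The promoter sequence of some of these genes is shown because 3 factors known to act on mitochondrial genes have spelled motifs that can be looked for: TNAAGGTCA for ERRs, CCGGAAGT for GABPA and other ETS factors, and GCGCATGCG for NRF1, each on both strands. The windows run from 250 bases before to 50 after the start in RefSeq (GRCm38.p6), and 38 of the 44 genes were matched; Afg3l2, Tomm7, Timm21, Tomm40l, Hspa9 and Htra2 were not. The ERR motif was in 1 of the 38, Timm8b, which was not called in any knockout comparison, against 1.43% of all 27025 genes. None of the 20 matched genes with a fall in the ERRalpha/ERRgamma EDL held it. With 1.43% over all genes, a count of 0 in 20 cannot be told from that share. Afg3l2, Timm21, Tomm40l, Hspa9 and Htra2, which also fell there, could not be searched. The letters lie 96 bases before the start of Timm8b (chr9:50603785-50603833, plus strand), in capitals:
Timm8b: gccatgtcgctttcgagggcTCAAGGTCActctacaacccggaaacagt

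The ETS motif was in 8 of the 38 (21.1%), against 4.31% of all genes. For each motif the share of all genes is over the 27025 with a promoter window. That set is not limited to the 13404 genes that passed the filter on low values, so the 2 shares are over unlike sets. It was in 6 of the 20 matched genes that fell and in 1 of the 17 tested genes that did not fall, Timm10b; Timm8a2 was the eighth. The NRF1 motif was in Timm13 and Clpx (5.26% of the 38, against 1.95% of all genes). A match is a description of letters and not a measured site. The 6 that fell are shown with the motif in capitals, which on the opposite strand reads ACTTCCGG, cut at most 25 bases after the start. Mtx2 and Timmdc1 held 2 matches each. The stretches are chr16:57121614-57121661, plus strand, for Tomm70a; chr2:74825767-74825836, plus strand, for Mtx2; chr2:84827017-84827045, plus strand, for Timm10; chr14:32201912-32201959, minus strand, for Timm23; chr5:21737124-21737171, plus strand, for Pmpcb; and chr16:38522644-38522828, minus strand, for Timmdc1.
Tomm70a: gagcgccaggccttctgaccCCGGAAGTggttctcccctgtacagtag
Mtx2: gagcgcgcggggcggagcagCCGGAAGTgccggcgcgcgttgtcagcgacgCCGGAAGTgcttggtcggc
Timm10: agaagaggctagacttccttCCGGAAGTg
Timm23: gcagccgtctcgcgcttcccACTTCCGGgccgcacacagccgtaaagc
Pmpcb: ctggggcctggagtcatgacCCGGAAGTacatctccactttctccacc
Timmdc1: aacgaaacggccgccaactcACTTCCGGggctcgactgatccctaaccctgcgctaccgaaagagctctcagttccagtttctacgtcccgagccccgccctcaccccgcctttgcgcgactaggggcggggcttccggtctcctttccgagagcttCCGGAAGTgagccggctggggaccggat
The match lies 80 bases before the start in Tomm70a, 48 in Timm23 and 16 in Pmpcb, and just after it in Timm10. In Mtx2 the first match lies 25 bases before the start and the second lies just after the start, and in Timmdc1 they lie 145 and 8 bases before it.

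In soleus of the ERRalpha/ERRgamma class, 21 of the 43 genes fell and 1 rose, with a median change of -0.27 against 0.11 over all genes tested. Of all genes tested, 5.86% fell and 6.84% rose. After the libraries were centred on their median signal, 23 fell and 0 rose, and among all genes 910 fell and 551 rose in place of 785 and 915. The largest falls were in small TIM and outer membrane genes. Timm10 had signals of 4.90, 5.01 and 5.22 in the wild types and 3.92, 4.05 and 4.03 in the knockout-labelled libraries (-1.04 ± 0.16, adjusted p = 1.76e-05, limma). Timm8a1 went from 4.11, 4.23 and 4.20 to 3.29, 3.03 and 3.25 (-0.99 ± 0.16, adjusted p = 6.44e-05, limma). Tomm40l went from 4.02, 4.25 and 4.22 to 3.09, 3.42 and 3.39 (-0.86 ± 0.12, adjusted p = 5.77e-06, limma). In each of these genes every knockout-labelled library lay below every wild type, as in 24 of the 43 genes (share over all genes not counted).

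In soleus of that class, 2 of 8 TOM, 2 of 3 SAM, 4 of 5 TIM23, 3 of 5 motor, 2 of 4 chaperone and 4 of 7 protease genes fell. Mtx2 (-0.77 ± 0.14), Tomm5 (-0.71 ± 0.15) and Samm50 (-0.44 ± 0.07) fell at the outer membrane, and Tomm40 was not called (-0.19 ± 0.11). In TIM23 and its motor, Timm44 (-0.64 ± 0.10), Timm21 (-0.62 ± 0.10), Hspa9 (-0.47 ± 0.08), Grpel1 (-0.34 ± 0.07), Timm23 (-0.29 ± 0.06), Timm50 (-0.28 ± 0.07) and Timm17a (-0.24 ± 0.07) fell, and Timm17b was not called (0.13 ± 0.11). In the matrix Dnaja3 fell from 5.03, 5.22 and 5.21 to 4.41, 4.32 and 4.44 (-0.77 ± 0.07, adjusted p = 4.73e-09, limma), a change close in size to that in EDL. Hspd1 (-0.51 ± 0.11), Lonp1 (-0.39 ± 0.08), Pmpcb (-0.27 ± 0.07) and Clpx (-0.42 ± 0.10) also fell, as did Timmdc1 (-0.56 ± 0.09) and the m-AAA genes Afg3l2 (-0.40 ± 0.08) and Spg7 (-0.31 ± 0.08). Hspe1 (-0.13 ± 0.14), Trap1 (-0.12 ± 0.09) and Pmpca (-0.06 ± 0.06) were not called.

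Yme1l1 was the gene that rose in soleus, from 4.42, 4.47 and 4.25 to 4.56, 4.60 and 4.65 (0.22 ± 0.07, adjusted p = 0.0426, limma). Its call was lost after centring and in 8 of 15 alternative fits in all, including those without each of wild-type replicates 1 and 3 and knockout-labelled replicates 1, 2 and 3, with adjusted p up to 0.238. The fast-fibre gene Actn3 rose in the same comparison (2.16 ± 0.58), with 1 of 3 fast-fibre genes called and a summed signal of 502 to 1078 against 94.0 to 444. No fast-fibre gene was undetected in any library.

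Other marker values moved with the falls in soleus of that class. Mb fell (-0.66 ± 0.17) and Des rose (0.64 ± 0.13), and the summed linear signal of the 5 muscle fibre genes was 21066 to 21950 in the knockout-labelled libraries against 23340 to 23947 in the wild types. The 5 endothelial genes summed to 55.2 to 61.8 against 68.3 to 71.0. The sums were higher for the 3 slow-fibre genes (3454 to 4622 against 2605 to 3252), the 5 fibroblast genes (395 to 459 against 199 to 390) and the 5 leukocyte genes (10.7 to 12.6 against 4.93 to 10.4), of which 1 was undetected in some libraries. No slow-fibre, endothelial, fibroblast or leukocyte gene was called in this comparison by limma with Benjamini-Hochberg adjustment, and 0, 2, 1 and 0 of them had an unadjusted p under 0.05. The part of these values, fast-fibre genes included, in the results of this comparison was not tested.

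Of the genes that fell, 20 were called in both muscles of the ERRalpha/ERRgamma class, which is 80.0% of the 25 in EDL and 95.2% of the 21 in soleus. The same overlap over all genes was not counted, so these shares are not shown to be particular to this set. Clpp, Htra2, Tomm40, Tomm70a and Trap1 were called lower in EDL alone, and Clpx in soleus alone. After centring, Tomm70a and Clpp were called lower in soleus too, and Clpp also with library weights. Being called in a single muscle does not show a difference, which was tested directly as soleus change minus EDL change. It was called for 7 genes, each with the smaller fall in soleus, and for 0 in the other direction; among all genes tested 1.5% were called higher and 0.57% lower. Timm17a differed by 0.87 ± 0.09 (adjusted p = 2.03e-07, limma), falling by 0.24 on the log2 scale in soleus and by 1.11 in EDL. Afg3l2 differed by 0.75 ± 0.12, Hspa9 by 0.67 ± 0.11, Trap1 by 0.66 ± 0.12, Samm50 by 0.62 ± 0.10 and Pmpcb and Spg7 by 0.47 each (SE 0.10 and 0.11). The call for Spg7 was lost after centring and without soleus wild-type replicate 1, EDL wild-type replicate 2 or EDL knockout-labelled replicate 1 (adjusted p 0.052 to 0.065). Of the genes called lower in a single muscle, Trap1 was therefore the only 1 with a called difference. The fall of Esrra was also smaller in soleus (difference 1.66 ± 0.16).

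**Figure D3:**
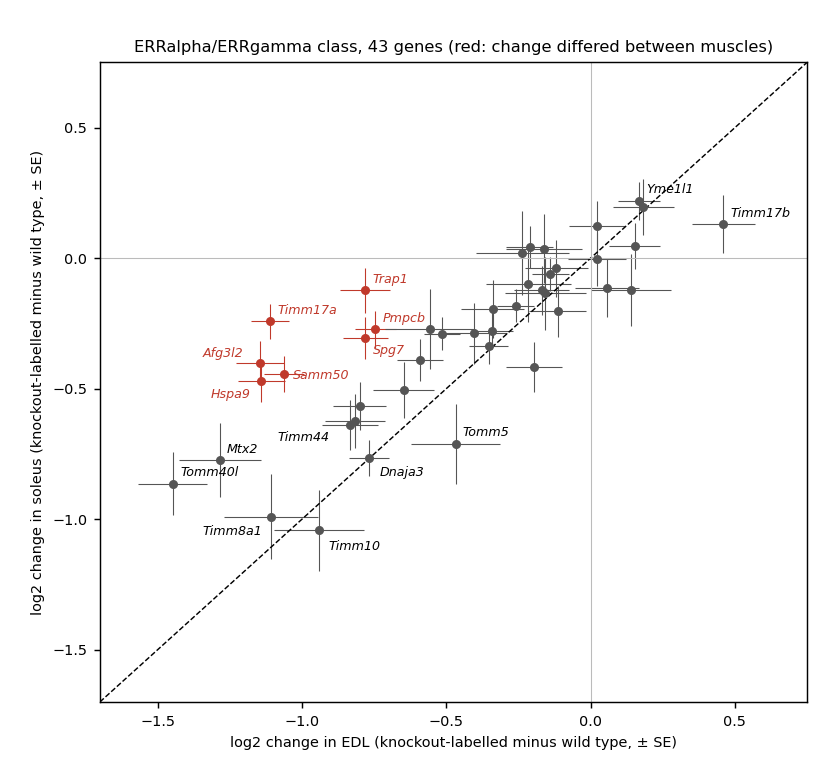
Log2 change of the 43 genes in EDL (horizontal axis) and soleus (vertical axis) of the ERRalpha/ERRgamma class, with SE bars and a dashed line of equal change. The 7 red genes, whose change differed between muscles, lie above the line, while Timm10, Timm8a1 and Dnaja3 lie near it.

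In the ERRalpha class, 4 genes fell in EDL and 0 rose, where 1.46% of all genes fell and 1.82% rose. Tomm40l was again the gene with the largest change, from 3.44, 3.71 and 3.81 in the wild types to 3.11, 2.91 and 3.12 (-0.60 ± 0.12, adjusted p = 0.00316, limma). Timm23 went from 7.46, 7.47 and 7.60 to 7.16, 7.15 and 7.19 (-0.34 ± 0.06, adjusted p = 0.00171, limma), and its call held in all 15 alternative fits. Tomm7 (-0.36 ± 0.10, adjusted p = 0.0403) and Timmdc1 (-0.35 ± 0.09, adjusted p = 0.03, limma) were called near the threshold. The groups of these 4 genes did not overlap, but the same was true of 14 of the 43 genes, most of them not called. The share over all genes was not counted. Without wild-type replicate 1 or 3 or knockout-labelled replicate 1 or 2, 2 of the 4 falls were called. When only the EDL ERRalpha groups were fitted, Timm23 was the 1 fall still called, and Timm9 was then called as a rise. In the fit over all libraries Samm50 (-0.22 ± 0.07), Spg7 (-0.27 ± 0.08) and Timm9 (0.44 ± 0.13) were not called. With library weights, Samm50 and Spg7 were called as falls as well. The median change of the 43 was -0.04, against 0.02 over all genes.

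In soleus of the ERRalpha class, 0 of the 43 genes were called by limma with Benjamini-Hochberg adjustment, and 12 had an unadjusted p under 0.05, against 10.8% of all genes. Among all genes 0.464% rose and 0.247% fell. Tomm40l was at 4.13, 4.22 and 4.03 in the wild types and 3.75, 3.74 and 3.74 in the knockout-labelled libraries (-0.38 ± 0.12, adjusted p = 0.154, limma). Mtx1 (0.48 ± 0.15) and Timm9 (0.41 ± 0.13) had the largest positive values. The change of the ERRalpha class did not differ between muscles for any of the 43 at this threshold (0 called, 4 with an unadjusted p under 0.05 against 7.28% of all genes, limma), and among all genes 0% were called higher and 0.0151% lower.

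In the ERRbeta/ERRgamma class, 0 genes were called in EDL by limma with Benjamini-Hochberg adjustment, and 4 had an unadjusted p under 0.05, against 7.15% of all genes. Among all genes 0.06% rose and 0.158% fell. Dnajc19 (0.41 ± 0.11) and Mtx1 (-0.33 ± 0.15) had the values farthest from 0. With library weights, Dnajc19 was called. In soleus 4 genes fell and 0 rose, where 3.55% of all genes fell and 3.16% rose. Clpx had signals of 5.76, 5.55 and 5.50 in the wild types and 4.90, 5.10 and 5.05 in the knockout-labelled libraries (-0.58 ± 0.10, adjusted p = 0.000341, limma). Timm21 went from 3.76, 3.71 and 3.97 to 3.21, 3.23 and 3.33 (-0.56 ± 0.10, adjusted p = 0.00114, limma), and Dnaja3 from 5.15, 5.13 and 5.27 to 4.94, 4.90 and 4.90 (-0.26 ± 0.07, adjusted p = 0.0192, limma). These groups did not overlap, which held for 7 of the 43 genes in this comparison (share over all genes not counted). Hspd1 went from 6.72, 6.54 and 6.74 to 6.63, 6.25 and 5.98 (-0.38 ± 0.11, adjusted p = 0.0283, limma), and its groups overlapped. The count stayed at 4 without knockout-labelled replicate 1, the library with the highest Hspe1 signal of its group (6.84, against 6.05 and 5.91). It was 2 without wild-type replicate 3 or knockout-labelled replicate 3, and 0 when only these groups were fitted. The calls over all genes moved more: 898 with every library, 396 without knockout-labelled replicate 1, 2139 without knockout-labelled replicate 2, 440 without wild-type replicate 3 and 4 when only these groups were fitted. The summed linear signal of the 5 leukocyte genes was 3.72, 9.52 and 48.6 in the knockout-labelled libraries of this comparison, in order of size, against 2.84 to 8.97 in the wild types. Its part in the result was not tested.

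Whether the ERRbeta/ERRgamma change differed between muscles was tested in the same way, and 0 of the 43 were called (limma; 4 with an unadjusted p under 0.05, against 11.9% of all genes), where 0.0526% of all genes were called higher in soleus and 0.158% lower. Timm21, with a difference of -0.58 ± 0.15, was called when the animal number was kept as a block. Without soleus knockout-labelled replicate 2 the count was also 1.

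The classes were set against each other as differences of their changes, each class with its own wild types. In EDL the ERRalpha/ERRgamma change was lower than the ERRalpha change for 18 of the 43 genes and higher for 0, where 3.48% of all genes were lower and 1.33% higher. The largest of these differences were for Afg3l2 (-1.27 ± 0.12, adjusted p = 3.7e-09, limma), Mtx2 (-1.16 ± 0.20), Timm17a (-1.16 ± 0.09), Timm10 (-1.10 ± 0.22) and Hspa9 (-1.10 ± 0.11). Tomm40l, which fell in both classes, fell further in the ERRalpha/ERRgamma class (difference -0.84 ± 0.17, adjusted p = 0.0014, limma). For Timm23, which also fell in both, the difference was not called. Of the 18 calls, 14 held in all 21 alternative fits (not Tomm40, Timm21, Hspd1 and Timmdc1). Against the ERRbeta/ERRgamma change in EDL, 19 were lower and 0 higher, where 4.06% of all genes were lower and 2.81% higher. The largest were Tomm40l (-1.42 ± 0.17, adjusted p = 3.7e-07, limma) and Mtx2 (-1.26 ± 0.20). Of these 19 calls, 17 held in all 21 alternative fits (not Grpel1 and Lonp1).

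In soleus the ERRalpha/ERRgamma change was lower than the ERRalpha change for 14 of the 43 genes and higher for 0, where 2.93% of all genes were lower and 1.83% higher. Timm10 led (-1.41 ± 0.22, adjusted p = 0.00012, limma), followed by Timm8a1 (-0.97 ± 0.23), Dnaja3 (-0.91 ± 0.10) and Mtx2 (-0.88 ± 0.20). Of the 14 calls, 10 held in all 21 alternative fits (not Clpx, Timm21, Hspd1 and Grpel1). The call for Clpx was lost in 13 of them. Against the ERRbeta/ERRgamma change, 6 were lower and 0 higher, where 0.883% of all genes were lower and 0.322% higher. They were Tomm40l (-0.78 ± 0.17), Timm44 (-0.57 ± 0.14), Dnaja3 (-0.50 ± 0.10), Afg3l2 (-0.46 ± 0.12), Timm50 (-0.42 ± 0.10) and Samm50 (-0.39 ± 0.10). This count was 0 when only the groups compared were fitted, 2 without ERRbeta/ERRgamma wild-type replicate 3, and 3 without ERRalpha/ERRgamma wild-type replicate 1, 2 or 3 or knockout-labelled replicate 1 or 3. With the animal number as a block it was 5, without Samm50. For Clpx and Timm21, which fell in soleus of both of these classes, the difference was not called.

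Several of the genes belong to pairs of near relatives or of partner subunits, and members of a pair were not always called together. Across the 12 groups, Timm17a and Timm17b, Timm8a1 and Timm8b, and Timm10 and Timm10b separated in EDL of the ERRalpha/ERRgamma class, and in soleus as well, where Timm17b was not called. The m-AAA genes Afg3l2 and Spg7 fell in both muscles of that class, as did the further subunit gene Afg3l1, which is outside the 43 (EDL -0.34 ± 0.08, soleus -0.36 ± 0.08). Of the relatives outside the 43, Grpel2, a paralog of Grpel1, was not called in EDL (-0.12 ± 0.13) or soleus (-0.15 ± 0.13). Dnajc15, a paralog of the motor regulator Dnajc19, fell in both (-0.45 ± 0.11 and -0.63 ± 0.11), while Dnajc19 was not called in either. A difference in calls within a pair was not itself tested.

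**Figure D4:**
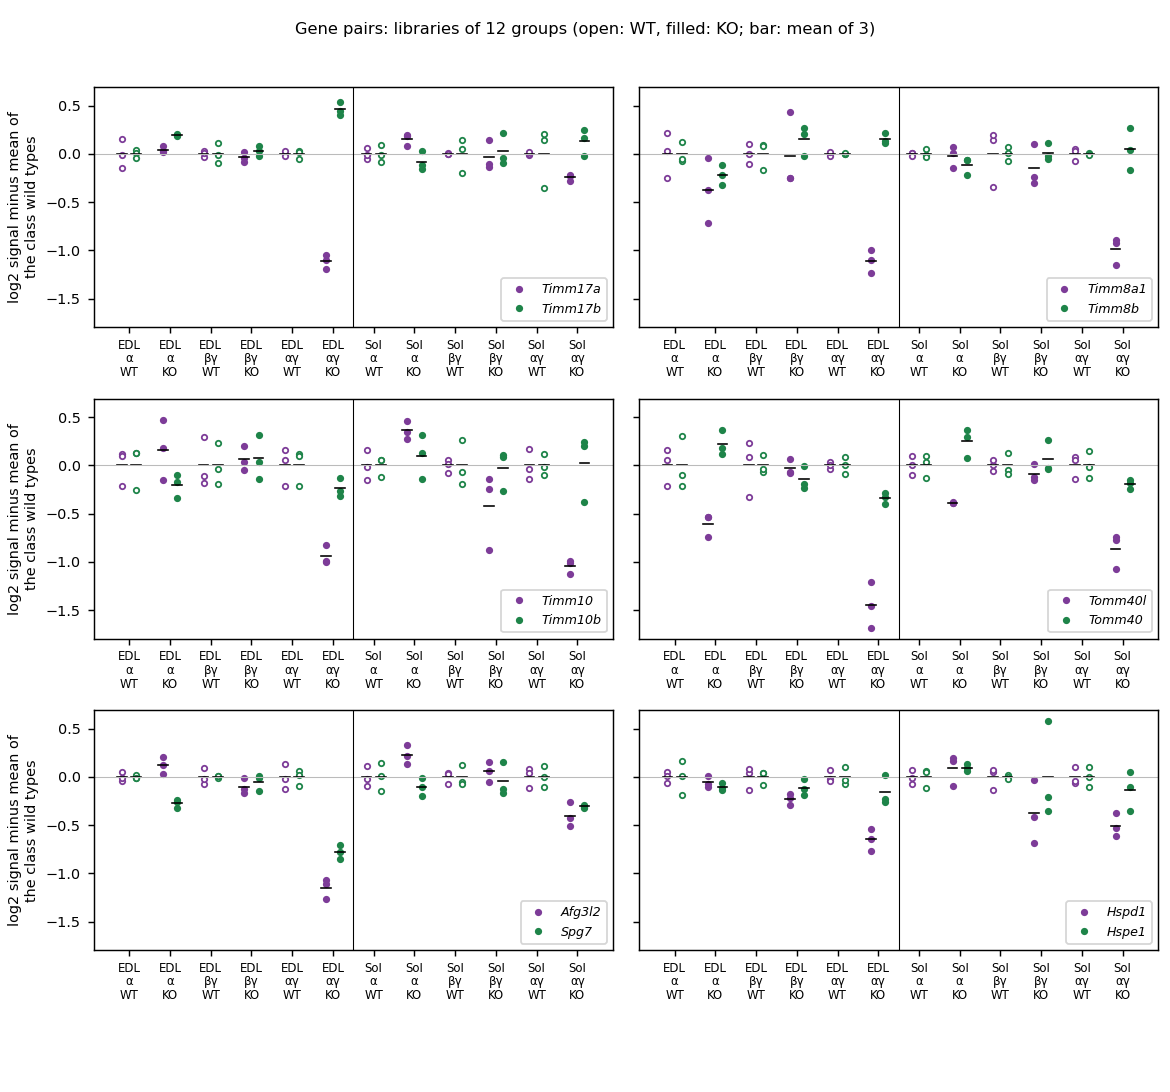
Log2 signal of 6 gene pairs in the libraries of the 12 groups, each as the difference from the mean of the wild types of its own muscle and class (open points, wild type; filled points, knockout-labelled; bars, means of 3). In the EDL ERRalpha/ERRgamma groups Timm17a lies about 1 unit below its wild types and Timm17b above them, and in both muscles of that class Timm8a1 and Timm10 lie below their wild types while Timm8b and Timm10b lie closer to theirs.

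Wild-type soleus and EDL were compared over 9 libraries each. Of the 43 genes, 23 were higher in soleus and 7 lower, where 30.8% of all genes were higher and 23.6% lower. After centring, 21 were higher and 11 lower, where 26.4% of all genes were higher and 27.4% lower; Hspa9 and Hspd1 lost their calls, and Tomm6, Timm8b, Dnajc19 and Dnaja3 were then called lower. The median difference was 0.18, against 0.08 over all genes. Timm8a1 ranged from 2.56 (median 2.92) to 3.03 in EDL and from 3.41 (median 4.10) to 4.23 in soleus (1.13 ± 0.09, adjusted p = 2.35e-11, limma). Mtx2 ranged from 4.04 (median 4.56) to 5.01 in EDL and from 5.18 (median 5.59) to 5.76 in soleus (1.01 ± 0.08, adjusted p = 1.41e-11, limma). Neither gene overlapped between muscles, which held for 15 of the 43 genes (share over all genes not counted). Timm10 (0.81 ± 0.09), the receptor Tomm20 (0.75 ± 0.06) and the unfoldase Clpx (0.62 ± 0.06) were also higher in every soleus library than in every EDL library.

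At the outer membrane 6 of 8 TOM genes and all 3 SAM genes were higher in wild-type soleus, with Tomm22 at 0.43 ± 0.05 and Mtx1 at 0.47 ± 0.08. The inner membrane was mixed: Timm21 (0.47 ± 0.06), Timm17a (0.33 ± 0.04) and Timm50 (0.20 ± 0.04) were higher, and Timm23 (-0.33 ± 0.04) and Timm17b (-0.20 ± 0.06) lower. Timm23 ranged from 7.42 to 7.64 (median 7.52) in EDL and from 6.99 to 7.37 (median 7.20) in soleus, without overlap. The m-AAA subunits were split, with Afg3l2 higher (0.32 ± 0.05) and Spg7 lower (-0.37 ± 0.05), and so were the processing peptidase subunits, with Pmpcb higher (0.46 ± 0.04) and Pmpca lower (-0.24 ± 0.04). Of the remaining genes lower in soleus, Lonp1 (-0.14 ± 0.05), Clpp (-0.17 ± 0.07) and Trap1 (-0.13 ± 0.05) differed little, and the call was lost for Clpp in 12 fits and for Trap1 in 4.

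**Figure D5:**
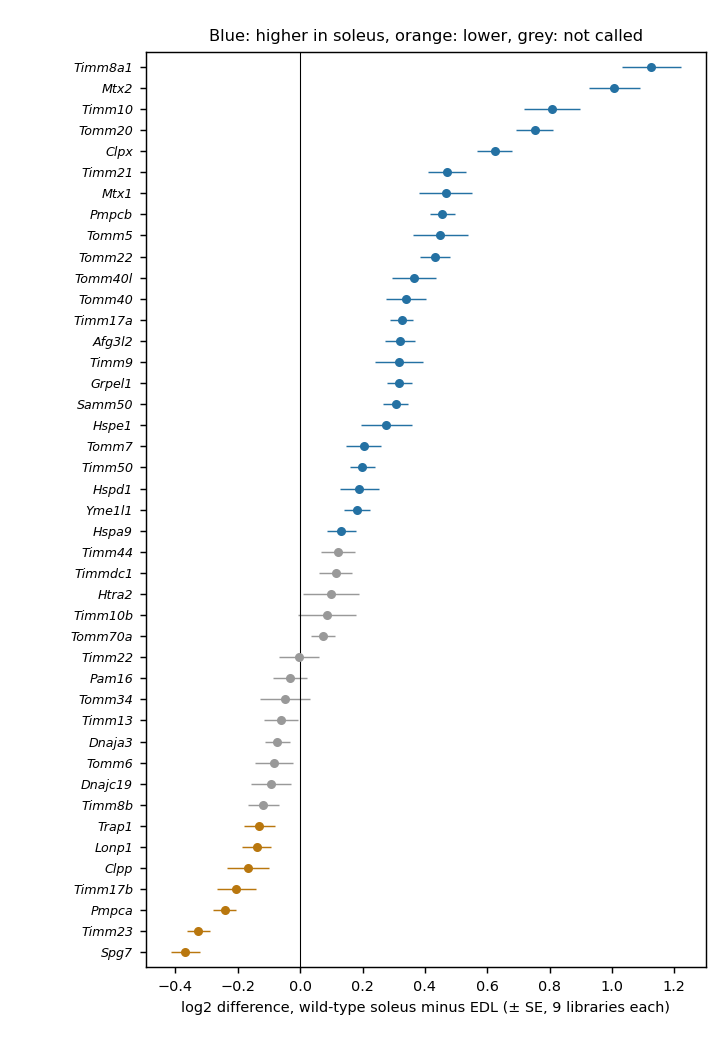
Log2 difference of wild-type soleus minus wild-type EDL for the 43 genes (points, with SE bars; 9 libraries per muscle), in order of size. Timm8a1 and Mtx2 lie above 1, the 23 blue genes were called higher in soleus and the 7 orange genes, ending with Spg7, lower.

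Other genes of the pathway, which the symbol rule leaves out, were counted in the same way. Of 25 tested, 13 fell and 1 rose in the EDL of the ERRalpha/ERRgamma class, and 11 fell and 1 rose in soleus. These stand beside 6.95% of all genes that fell and 11.1% that rose in EDL, and 5.86% and 6.84% in soleus. The largest falls in EDL were in Lace1, the mouse AFG1-like ATPase (-1.53 ± 0.16), Immp2l, an inner membrane peptidase (-1.29 ± 0.20), Phb, a prohibitin (-0.83 ± 0.08), Chchd4, the import oxidoreductase of the intermembrane space (-0.73 ± 0.15), Oxa1l, the insertase (-0.69 ± 0.11), and Parl, a rhomboid protease (-0.65 ± 0.08). All of these also fell in soleus (Immp2l -1.16 ± 0.20, Lace1 -0.81 ± 0.16, Oxa1l -0.61 ± 0.11, Chchd4 -0.47 ± 0.15, Parl -0.46 ± 0.08, Phb -0.28 ± 0.08). Gfer, the sulfhydryl oxidase that reoxidizes Chchd4, was the gene that rose. It was at 3.74 to 3.94 in the EDL wild types and 4.68 to 4.89 in the knockout-labelled libraries of that class (0.97 ± 0.09, adjusted p = 9.6e-10, limma). It also rose in soleus of that class (0.80 ± 0.09), in both muscles of the ERRalpha class (EDL 0.60 ± 0.09, soleus 0.53 ± 0.09) and in the ERRbeta/ERRgamma class in EDL (0.43 ± 0.09). In soleus of the ERRbeta/ERRgamma class it was not called (0.22 ± 0.09).

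Chaperones of the cytosol and endoplasmic reticulum, listed for comparison, did not fall with their mitochondrial counterparts. Of 21 tested, 12 rose and 0 fell in the EDL of the ERRalpha/ERRgamma class, where 11.1% of all genes rose, with a median of 0.28 against 0.13 over all genes. In soleus of that class 4 rose and 0 fell, where 6.84% of all genes rose. After centring, 9 rose in EDL and 1, Hsp90ab1, in soleus, where 7.55% and 4.12% of all genes rose. Most of the 9 were subunits of the cytosolic chaperonin (Cct2, Cct4, Cct5, Cct6a, Cct7, Cct8 and Tcp1), and the others were Hsp90ab1 and Hspa5. After centring, Hspa4, Hspa8, Hsp90aa1, Hsp90b1, Hsph1, Dnaja1, Dnajb1, Canx, Calr, Pdia3, Pdia4 and the chaperonin subunit Cct3 were not called in EDL. The cytosolic Hsp90 gene Hsp90ab1 rose by 0.77 ± 0.12 in EDL, where its mitochondrial paralog Trap1 fell. The endoplasmic reticulum Hsp70 gene Hspa5 rose by 0.61 ± 0.17, where the mitochondrial Hsp70 gene Hspa9 fell. Cct7 (0.42 ± 0.07) and Tcp1 (0.42 ± 0.06), subunits of the cytosolic chaperonin, rose where the mitochondrial chaperonin gene Hspd1 fell. The difference between the lists was not tested.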

How the data were processed

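Messenger RNA was measured in 36 mouse libraries, 12 groups of 3. The authors deposited 1 table of log2 signals, and its name says that they were log transformed and quantile normalized. Partek 6.6 and the builds GRCm38.p6 and mm10 come from the submitters' processing notes, with no role stated. Which aligner and counting were used is not given in the sources used here. Library depth cannot be recovered, which limits precision for low signals.

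Columns were matched to groups by muscle, class letter and Cre mark. FXp was read as knockout and FX- as wild type, and the EDL ERRalpha columns, which carry no class letter, were assigned through animal numbers they share with soleus. Rows without a value (27904) and 25 rows with symbols turned into dates were left out. For the filter on low values, empty cells counted as -8.21, the table's minimum, and a gene stayed if its mean was above -5.24, the 25th percentile of these means. This left 13404 of 17873 genes, whose empty cells were not filled in for testing. The log base is not stated and was read as 2 from the values.

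The 14 contrasts were fitted in R 4.3.3 by limma 3.58.1, using a variance trend on mean signal and 1 mean per group over all libraries, with Benjamini-Hochberg adjustment over all genes in each. Replicates are biological, per the series' design text. The scripts were tested on simulated data. Promoters came from RefSeq and gene positions from a GENCODE annotation of GRCm38, read with Python 3.11.15. Genes named are those called with the largest change, both members of each pair, and uncalled members of a role group. The 43 genes, role groups and lists were chosen with earlier results of these data known. Alternatives were another treatment of missing values, no filter, complete genes alone, a pseudocount of 1, centring each library on its median, no trend, library weights, the animal number as a block, the compared groups alone, and leaving out each library.

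Animal numbers were taken to pair soleus with EDL for the 14 animals that gave both. Deviations from the group means correlated at -0.068 to 0.324 within these pairs, over 0.1 in 7 of 14.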

Additional observations from a re-analysis of the deposited data

Results flagged for a closer look

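The changes of 7 genes in the ERRalpha/ERRgamma class differed between muscles by a test of the difference (soleus change minus EDL change, limma, Benjamini-Hochberg over all genes). They were Timm17a (0.87, adjusted p = 2.03e-07), Afg3l2 (0.75, adjusted p = 0.000121), Hspa9 (0.67, adjusted p = 0.000427), Trap1 (0.66, adjusted p = 0.00122), Samm50 (0.62, adjusted p = 0.000158), Spg7 (0.47, adjusted p = 0.0174) and Pmpcb (0.47, adjusted p = 0.00555). Each fell less in soleus, or was not called there in the case of Trap1.

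Over 86 groups of 9 wild-type libraries, 3 held a library far from the rest by Dixon's criterion, and chance alone gives about 1 in 20. Timm8a1 was lowest in EDL ERRalpha wild-type replicate 1 (2.56, next 2.80) and in soleus ERRbeta/ERRgamma wild-type replicate 1 (3.41, next 3.90). Timm22 was lowest in EDL ERRbeta/ERRgamma wild-type replicate 1 (2.83, next 3.11).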

How the results depend on the processing

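No called gene changed direction in any alternative fit, for the 150 gene results followed. Several of these fits could not reverse a change, because the 43 genes had a value in every library. The treatment of missing values, no filter, complete genes alone, no trend and the compared groups alone leave the log2 change itself as it was. In EDL of the ERRalpha/ERRgamma class, 21 of the 26 calls held in all 15 fits (not Clpp, Htra2, Tomm40, Tomm5 and Tomm70a), and 22 to 26 genes were called when a library was left out. In soleus 18 of 22 held (not Spg7, Timm23, Timm50 and Yme1l1), with 20 to 22. For wild-type soleus against EDL 26 of 30 held over 27 fits, with 29 to 32, and for the muscle difference of the ERRalpha/ERRgamma class 6 of 7 over 21 fits.

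Smaller counts moved more. For EDL ERRalpha (4) the count was 6 with library weights (Samm50 and Spg7 gained as falls). It was 2 with only the groups compared (Timm23, and Timm9 as a rise) and 2 to 3 without a library. For EDL ERRbeta/ERRgamma (0) it was 1 with library weights. For soleus ERRbeta/ERRgamma (4) it was 0 with only the groups compared and 2 to 5 without a library. For the muscle difference of the ERRbeta/ERRgamma class (0) it was 3 with library weights, 1 with the animal number as a replicate block, and 0 to 1 without a library. For the soleus difference of ERRalpha/ERRgamma and ERRbeta/ERRgamma (6) it was 3 with no trend, 12 with library weights, 0 with only the groups compared and 2 to 6 without a library. The cause was not tested.

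With the animal block, the counts were 26 in EDL and 22 in soleus of the ERRalpha/ERRgamma class, 31 for wild-type soleus against EDL (Timm8b gained) and 5 for the last soleus difference (Samm50 lost). No other call of the 43 genes changed under this pairing, apart from Timm21 in the muscle difference of the ERRbeta/ERRgamma class. Quantile normalization hides depth, so a change in total RNA cannot be seen.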
